A study of Homo sapiens with 6 samples.

Results

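The proteins of the mitochondrial ribosome were followed through their messenger RNAs, by taking every gene of the table whose symbol begins with MRPL or MRPS and a digit. The rule found 78 of 19727 genes, 49 with an MRPL symbol (large subunit) and 29 with an MRPS symbol (small subunit). DU145 is an established line of human prostate cancer cells. Cells carrying lentivirus-circCSPP1, which overexpresses a circular RNA made from the CSPP1 gene (genotype label: circCSPP1 overexpression), were compared with cells carrying the control lentivirus-NC (genotype label: normal), with 3 libraries of polyadenylated RNA in each group. Both lines were selected with puromycin after infection, so each group is 1 stable line with a vector of its own, and a difference between the vectors cannot be told apart from a difference between the lines. No source says that the 3 libraries of a group came from separate cultures, so the p-values may measure technical spread only. Each value is an FPKM, a count of fragments a fragment count put relative to transcript length and library size, as the authors deposited it.

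The mitochondrial ribosome translates the few messages of the mitochondrial genome, which encode core subunits of the respiratory chain. Its ribosomal RNAs are transcribed inside the organelle, whereas all of its proteins are encoded in the nucleus, made in the cytosol and imported. Part of these proteins descend from bacterial ribosomal proteins and the others were added in the mitochondrial lineage. Nuclear genes of this kind are often bound near their start by NRF1, by ETS factors such as GABPA and by YY1. By structure, MRPS30 and MRPS18A sit in the large subunit despite their names, and MRPS36, also called KGD4, is a component of the α-ketoglutarate dehydrogenase complex.

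The starts of these genes were read for the letters of the 3 binding motifs, in a window from 250 bases before to 50 bases after the RefSeq start (GRCh38.p14, both strands). A promoter was matched for 69 of the 78 genes. The ETS letters CCGGAAG were found in 29 promoters (42.0%), against 20.1% of the promoters of all tested genes and 10.7% of all 27305 promoters. The YY1 letters ATGGCGGC were found in 19 (27.5%, against 6.56% and 3.21%), and the letters of the NRF1 motif in 8 (11.6%, against 12% and 6.29%). In 17 of the 19 the YY1 letters lay on the gene's own strand, 9 to 38 bases after the start. In 16 of these 17, MRPS15 being the exception, they were also the first letters of the coding sequence, so that the match covers a start codon followed by alanine codons. The coding sequence began with ATGGCGGC in 18 of the 78 genes (23.1%), against 536 of 12281 tested genes (4.36%). A match describes letters and is not evidence of binding. A set of genes named in the results below are shown, with the YY1 letters in capitals, as they overlap the start codon of MRPS30 (chr5:44808952-44808981, plus strand), MRPS18B (chr6:30617855-30617884, plus), MRPS24 (chr7:43869477-43869506, minus), MRPL46 (chr15:88467359-88467388, minus) and MRPL19 (chr2:75646797-75646826, plus).
MRPS30: cgcgggcaaagATGGCGGCggccaggtgtt
MRPS18B: cgtacgtcaagATGGCGGCgtctgtattaa
MRPS24: cttggcccaagATGGCGGCctccgtgtgca
MRPL46: gagaacgaaagATGGCGGCgcccgtaaggc
MRPL19: agctagctggcATGGCGGCctgcattgcag

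The ETS letters are shown in capitals for MRPS21 (chr1:150293839-150293868, plus, where they lie on the opposite strand and read CTTCCGG), MRPL40 (chr22:19432523-19432552, plus) and MRPS12 (chr19:38930928-38930957, plus). The NRF1 letters are shown for MRPL45 (chr17:38296969-38296998, plus). All 4 windows lie before the start or across it.
MRPS21: cgtaatttccgCTTCCGGtagtgagaaccc
MRPL40: ggggcgcacgcCCGGAAGcggcgagggtag
MRPS12: acggatagcgcCCGGAAGaggctagaagct
MRPL45: ttgtctccctGCGCACGCGCggccgtactc

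Depth, estimated from the steps between low FPKM values, was 28800000 to 36400000 fragments per library, and the lowest estimate for a mitochondrial ribosomal protein gene was 108 fragments, for MRPL42. The epithelial keratins KRT8 (380 to 1138 FPKM) and KRT18 (319 to 634 FPKM) were high in every library, and KRT8 was lower in lentivirus-circCSPP1 (416 ± 38.3, SD, n = 3) than in lentivirus-NC (1112 ± 26.4, SD, n = 3). CDH1 likewise measured 3.01 ± 0.507 against 10.9 ± 0.953 FPKM (SD, n = 3 each). The part of this epithelial difference in the results below was not tested. The leukocyte markers PTPRC and CD3E stayed at or below 0.08 FPKM and the fibroblast and endothelial markers COL1A2, DCN, PECAM1, CDH5 and VWF at or below 0.43 FPKM. COL1A1 ran from 0.99 to 4.06 FPKM. CSPP1 was at 9.54 ± 0.493 in the lentivirus-NC libraries and 19.5 ± 4.44 FPKM in the lentivirus-circCSPP1 libraries (SD, n = 3 each), a value per gene that does not separate circular from linear RNA. Lentivirus-circCSPP1 replicate 1 stood apart from the other libraries in a way that followed the GC content of transcripts. Where leaving it out turned a direction, changed a call or moved a value by over 1.5 times, the value or the call without it is mostly given as well.

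All 78 genes were expressed above the filter of 1 FPKM on average that set which 12322 genes were tested. Their median level was 41.0 FPKM, against 15.6 FPKM for all tested genes. The highest mean, 174 FPKM for MRPL24, a protein at the rim of the peptide exit tunnel, was 39.5 times the lowest, 4.4 FPKM for MRPL42. MRPS24 followed with 146 FPKM, then MRPL49 with 128, MRPL51 with 126 and MRPL9 with 114 FPKM. MRPL51 was above MRPL9 in each of the 6 libraries. The place of MRPS24 was not settled, since it reached 200 FPKM in lentivirus-circCSPP1 replicate 1 and lay between 122 and 147 FPKM in the others, below MRPL49 in 2 libraries. MRPL49 ranged from 106 to 162 FPKM. At the low end, MRPS31 averaged 6.67 FPKM and MRPL1 6.82 FPKM. The median level was 41.4 FPKM for the MRPL genes and 31.4 FPKM for the MRPS genes.

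**Figure D1:**
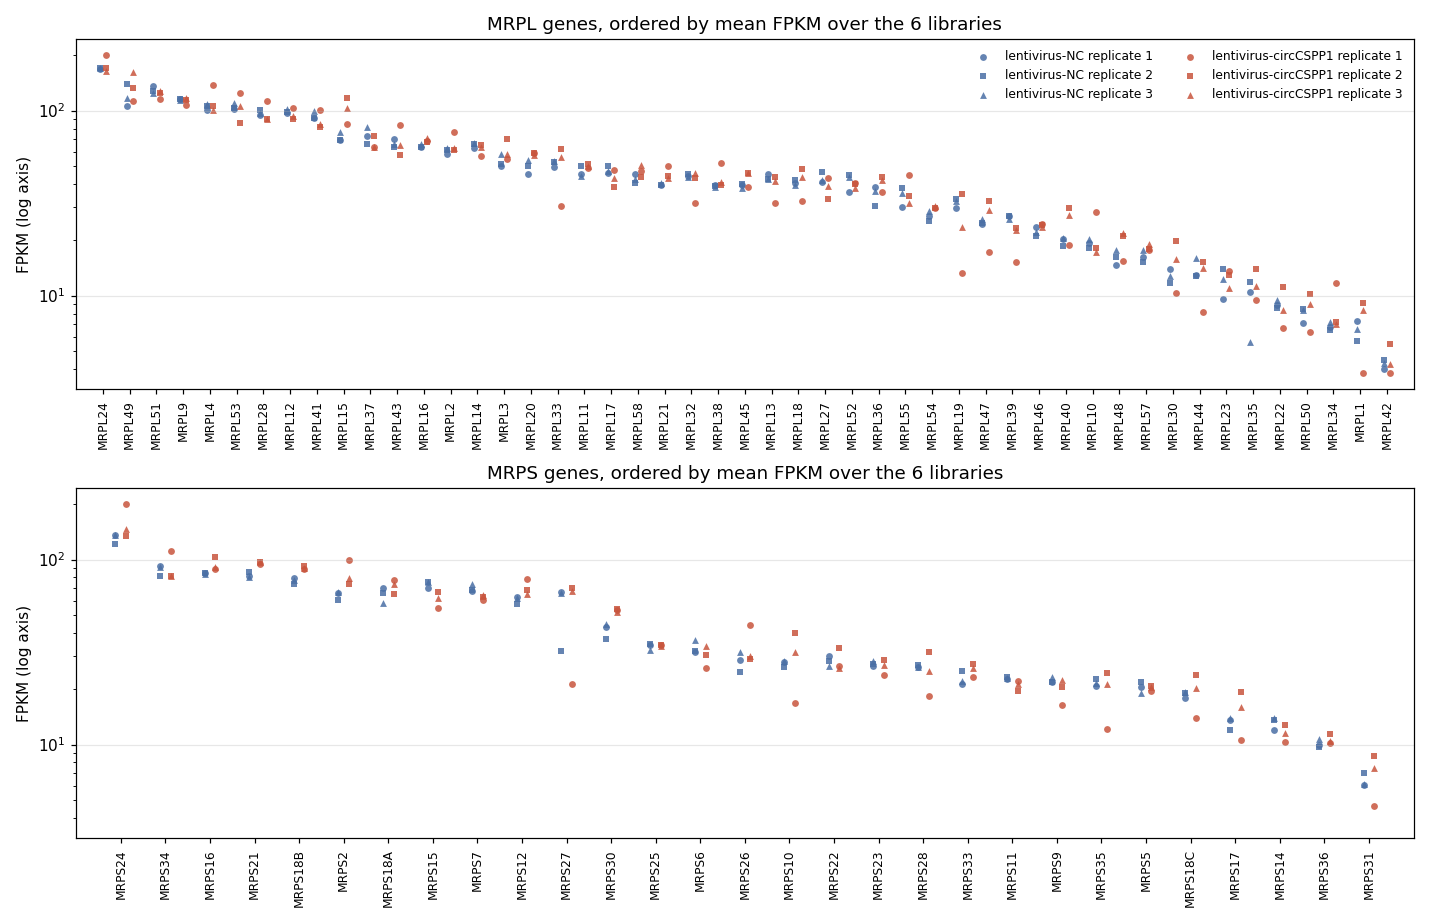
FPKM (log axis) of every mitochondrial ribosomal protein gene in the 6 libraries, MRPL genes in 1 panel and MRPS genes in the other, ordered by mean. Points of lentivirus-NC and lentivirus-circCSPP1 lie close together beside the spread between genes, which runs from 4.4 FPKM for MRPL42 to 174 FPKM for MRPL24.

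Mitochondrial ribosomal protein messages differed little between the lines, and 1 gene passed the test. MRPL15 rose, 0 members fell, and 59 of the 78 log2 fold changes were smaller than 0.2 in size. In limma with Benjamini-Hochberg adjustment over all 12322 genes, 1 member (1.28%) had an adjusted p below 0.05, where 11.4% of all tested genes did (4.69% higher, 6.66% lower). At an unadjusted p below 0.05, 6 members were higher and 2 lower (10.3%), against 28.2% of all genes. The fold changes ran from -0.49 (MRPL19) to 0.48 (MRPL15), with standard errors of 0.073 to 0.48 and a median of 0.12. The median fold change of the members was 0.056 (interquartile range -0.080 to 0.16), beside -0.028 (-0.22 to 0.15) for all genes. Of the members 62.8% were above 0, against 46.0% of all genes. Without lentivirus-circCSPP1 replicate 1 the median was 0.089 for the members and 0.0097 for all genes. In bulk RNA, fewer cells that express a gene and less RNA per cell cannot be told apart.

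**Figure D2:**
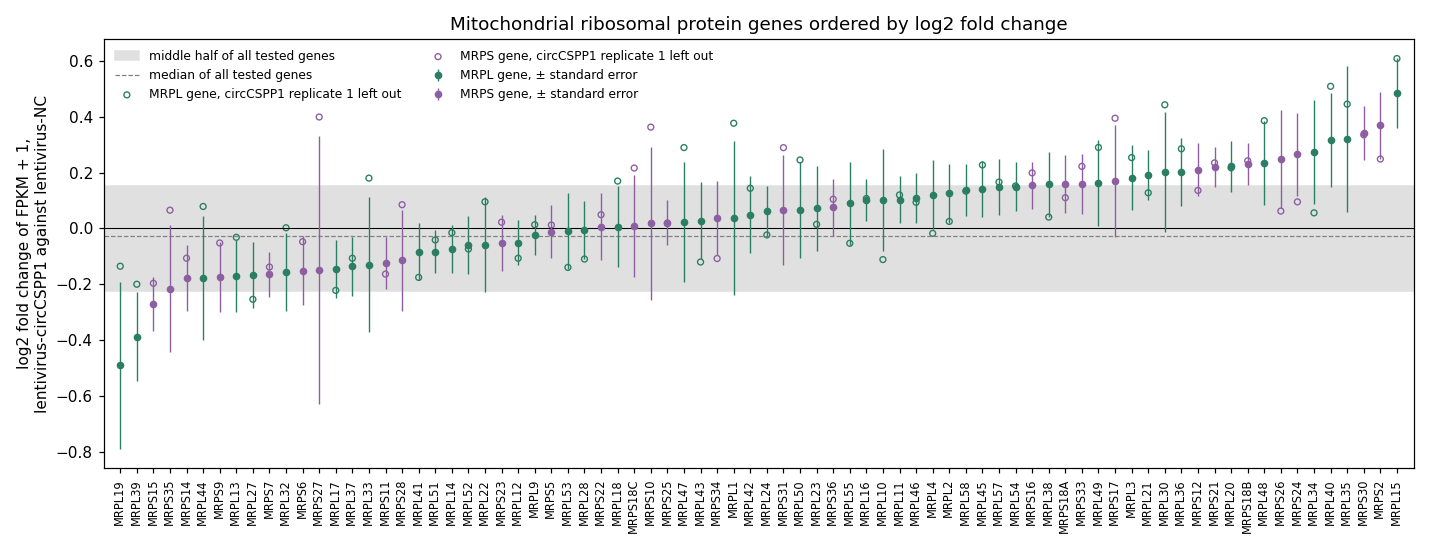
The log2 fold change of FPKM + 1, lentivirus-circCSPP1 against lentivirus-NC, of the 78 genes in order of size, with the standard error (bars) and the value without lentivirus-circCSPP1 replicate 1 (open circles); the grey band is the interquartile range of all tested genes. Most genes lie inside the band, and MRPL15 at 0.48 and MRPL19 at -0.49 stand at the ends.

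MRPL15, a large subunit protein with a bacterial counterpart, is encoded on chromosome 8 from 54135210 to 54147901 on the plus strand (GENCODE release 29, GRCh38). It was found at 69.7, 69.3 and 76.4 FPKM in the lentivirus-NC libraries and 84.7, 117 and 103 FPKM in the lentivirus-circCSPP1 libraries. All lentivirus-circCSPP1 values lay above all lentivirus-NC values, with replicate 1 nearest to them. Its log2 fold change was 0.48 (SE 0.12, adjusted p = 0.0476 in limma). Without lentivirus-circCSPP1 replicate 1 the fold change was 0.61 and the adjusted p in limma 0.00436. The call ended when replicate 2 or 3 of lentivirus-circCSPP1, or any lentivirus-NC library, was left out (adjusted p = 0.0807 to 0.172 in limma), and also with no filter, a filter at 5 FPKM, quantile normalization, no moderation or a replicate block.

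Another 4 genes had higher values in every lentivirus-circCSPP1 library and lay close to the threshold. MRPS30, a protein specific to mitochondria that belongs to the large subunit, was measured at 43, 37.4 and 45.0 in lentivirus-NC and 53.6, 53.7 and 52.0 FPKM in lentivirus-circCSPP1. For MRPS30 the log2 fold change was 0.34 (SE 0.095, adjusted p = 0.0599 in limma), and its 3 lentivirus-circCSPP1 libraries lay close together (SD 0.978 FPKM). MRPS2, a small subunit protein with a bacterial counterpart, read 65.7, 60.7 and 66.8 FPKM against 98.9, 73.6 and 79.8 FPKM, with replicate 1 the highest. The log2 change was 0.37 (SE 0.12, adjusted p = 0.0913 in limma).

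MRPS18B, 1 of 3 human relatives of bacterial ribosomal protein S18, read 79.7, 73.6 and 77.5 in lentivirus-NC and 88.8, 92.7 and 89.5 FPKM in lentivirus-circCSPP1. The groups did not overlap, and its log2 change was 0.23 (SE 0.075, adjusted p = 0.0924 in limma). MRPS21 read 81.2, 85.2 and 80.3 FPKM against 94.0, 96.6 and 97.3 FPKM. Its groups did not overlap either (log2 fold change 0.22, standard error 0.073, adjusted p = 0.0946 in limma), although 8 pseudogenes carry its name and reads shared with them could not be assessed. MRPL15 and these 4 genes all passed an adjusted p of 0.05 both without lentivirus-circCSPP1 replicate 1 and, separately, after a correction for GC content and transcript length. Of all tested genes, 13.2% and 12.3% were called higher in these settings, and the share called in both was not counted.

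**Figure D3:**
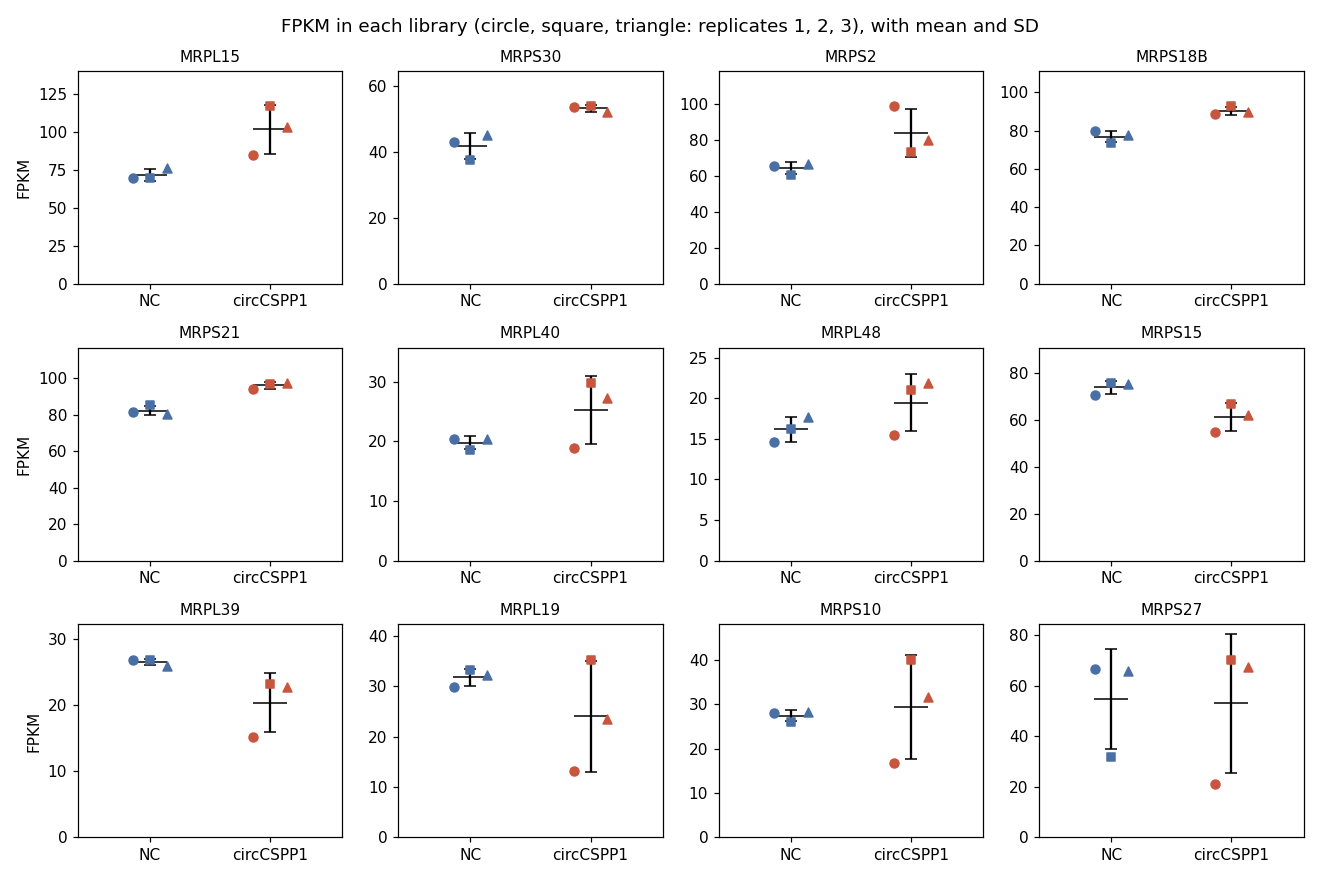
FPKM of the genes with the clearest or the most variable values, for each of the 3 lentivirus-NC and 3 lentivirus-circCSPP1 libraries (circle, square and triangle for replicates 1, 2 and 3), with the mean and SD. The groups do not overlap in MRPL15, MRPS30, MRPS2, MRPS18B and MRPS21, which are higher in lentivirus-circCSPP1, and in MRPS15 and MRPL39, which are lower. In MRPL19 replicate 1 of lentivirus-circCSPP1 is far below its partners (13.3 FPKM).

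The lower end was held by MRPL19, MRPL39 and MRPS15, none of which passed the test. MRPS15, a small subunit protein with a bacterial counterpart, read 70.3, 75.5 and 75.2 in lentivirus-NC and 54.7, 66.5 and 61.8 FPKM in lentivirus-circCSPP1. Every lentivirus-circCSPP1 value was below every lentivirus-NC value (log2 fold change -0.27, standard error 0.096, adjusted p = 0.113 in limma), and the fold change was -0.20 without replicate 1. MRPL39, specific to mitochondria, read 26.8, 26.8 and 25.9 FPKM against 15.2, 23.2 and 22.7 FPKM. The groups were again separate, but replicate 1 was far below the other two, and the fold change of -0.39 (standard error 0.16, adjusted p = 0.166 in limma) became -0.20 without it. MRPL19 spread from 13.3 to 35.2 FPKM within lentivirus-circCSPP1 and from 29.9 to 33.2 FPKM within lentivirus-NC. Its groups overlapped, and its fold change of -0.49 (adjusted p = 0.328 in limma) became -0.14 without replicate 1.

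Across all 78 genes, the groups did not overlap in 18 (23.1%), 14 of them higher and 4 lower in lentivirus-circCSPP1, against 36.4% of all tested genes (16.0% higher, 20.5% lower). Besides those above, the higher ones were MRPL16, MRPL20, MRPL21, MRPL38, MRPL46, MRPL54, MRPL57, MRPS12 and MRPS16, and the lower ones were MRPS7 and MRPS11. A two-sided exact permutation test on 1 gene in this design has 0.1 as its smallest p, so separation of the groups alone cannot pass 0.05. Without lentivirus-circCSPP1 replicate 1 the groups did not overlap in 40 members (51.3%), 31 higher and 9 lower, against 58.6% of all tested genes.

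None of the genes of the stalk that recruits translation factors passed the test. MRPL10 read 19.2 ± 1.15 in lentivirus-NC against 21.2 ± 6.07 FPKM in lentivirus-circCSPP1, MRPL11 46.6 ± 3.00 and 50.1 ± 1.19 FPKM, and MRPL12 99.1 ± 2.47 and 95.8 ± 6.80 FPKM (SD, n = 3 each). Around the exit tunnel and at its membrane side, the fold change was -0.058 for MRPL22, 0.072 for MRPL23 and 0.062 for MRPL24. MRPL44 gave -0.18, and MRPL45, which ties the ribosome to the inner membrane, gave 0.14. Their adjusted p ran from 0.395 to 0.862 in limma. Without replicate 1 the sign turned for MRPL10 (0.10 to -0.11), MRPL22 (to 0.096), MRPL24 (to -0.023) and MRPL44 (to 0.079), and the value was -0.11 for MRPL12, 0.015 for MRPL23 and 0.23 for MRPL45.

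The central protuberance of the large subunit showed fold changes above 0 in all 5 of the genes listed for it with all libraries, and 0 passed the test. For MRPL18 the sign was not stable, at -0.0016 under quantile normalization, -0.11 without replicate 2 and -0.039 without replicate 3 of lentivirus-circCSPP1, and -0.014 without replicate 3 of lentivirus-NC. MRPL40 read 20.3, 18.5 and 20.4 in lentivirus-NC and 18.8, 29.8 and 27.3 FPKM in lentivirus-circCSPP1. Replicate 1 thus lay among the lentivirus-NC libraries and the other two lay above them, and the fold change of 0.32 (adjusted p = 0.264 in limma) became 0.51 without replicate 1 (adjusted p = 0.00758). MRPL48 gave 0.24, MRPL38 0.16, MRPL46 0.11 and MRPL18 0.0069, or 0.39, 0.041, 0.094 and 0.17 without replicate 1. MRPL58, a peptidyl-tRNA hydrolase that frees stalled ribosomes and is also built into the large subunit, read 42.8 ± 2.30 against 47.2 ± 3.54 FPKM (SD, n = 3 each; fold change 0.14, adjusted p = 0.382 in limma).

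In the small subunit, MRPS12 of the decoding centre read 62.5, 57.4 and 62.3 in lentivirus-NC and 78.1, 68.3 and 65.3 FPKM in lentivirus-circCSPP1. The groups were separate, and the fold change was 0.21 (adjusted p = 0.199 in limma), or 0.14 without replicate 1. Of the relatives of bacterial S18, MRPS18A gave 0.16 and MRPS18C 0.010, beside 0.23 for MRPS18B, and without replicate 1 MRPS18C gave 0.22. MRPS18C, at 19.0 FPKM, stood below MRPS18A (68.4 FPKM) and MRPS18B (83.6 FPKM) in level. MRPS36, outside the ribosome, read 10.1 ± 0.552 against 10.7 ± 0.637 FPKM (SD, n = 3 each), with 5 pseudogenes named after it.

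The large and the small subunit were compared as sets of messages, as a description. Of the MRPL genes, 31 had a fold change above 0 and 18 below, with a median of 0.066 and 1 call. Of the MRPS genes, 18 were above 0 and 11 below, with a median of 0.021 and 0 calls. Among all tested genes 46.0% were above 0, the median was -0.028 and 11.4% were called. The MRPS median was 0.095 without replicate 1 and -0.028 without replicate 2 of lentivirus-circCSPP1, so its sign is not settled. Over all left-out libraries the MRPL median stayed between 0.058 and 0.079. With MRPS30, MRPS18A and MRPS36 moved to where they belong, the medians were 0.072 for 51 genes of the large and 0.014 for 26 genes of the small subunit, or 0.094 and 0.075 without replicate 1. The 48 genes with a bacterial counterpart had a median of 0.050 and the 30 specific to mitochondria 0.058, or 0.090 and 0.086 without replicate 1 of lentivirus-circCSPP1. No test was made between the subunits.

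Added up per library, all 78 genes reached 3662, 3646 and 3758 in lentivirus-NC and 3851, 3899 and 3865 FPKM in lentivirus-circCSPP1, which is 0.605% to 0.623% and 0.642% to 0.662% of the library's summed FPKM. The 2 groups did not overlap in this sum, whose mean was 1.05 times as high in lentivirus-circCSPP1. The MRPL sum was 2371, 2426 and 2459 against 2492, 2515 and 2509 FPKM, and the MRPS sum 1290, 1220 and 1300 against 1359, 1384 and 1356 FPKM. Both sums were therefore separate between the groups. Their ratio was 1.84, 1.99 and 1.89 in lentivirus-NC and 1.83, 1.82 and 1.85 in lentivirus-circCSPP1, lower in each lentivirus-circCSPP1 library than in lentivirus-NC replicates 2 and 3 but not separate from replicate 1, from which 1 of the 3 was higher.

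**Figure D4:**
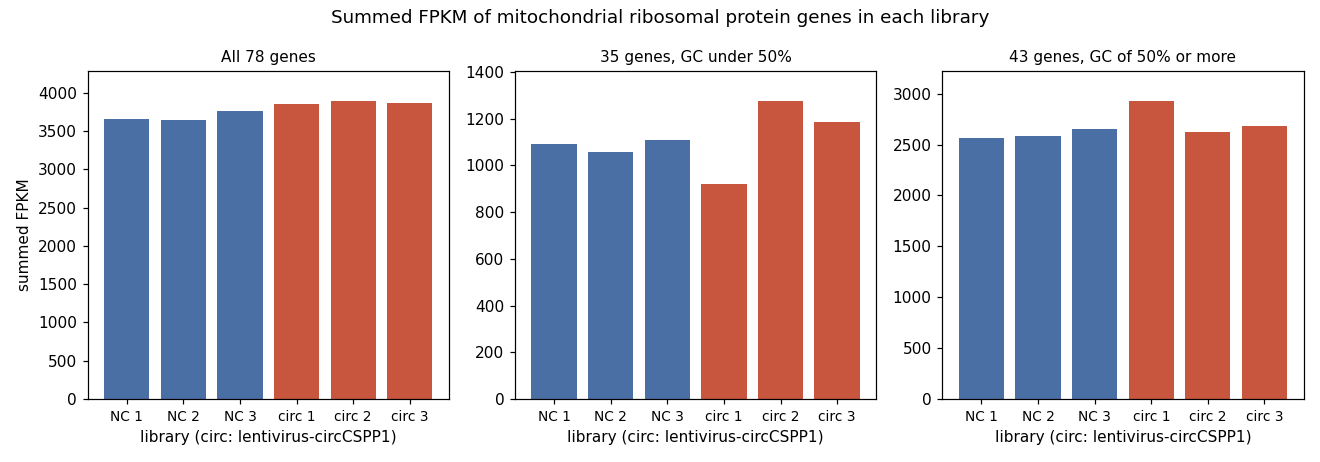
Summed FPKM of mitochondrial ribosomal protein genes in each of the 6 libraries, by set (bars from 0). The sum over all 78 genes is 3646 to 3758 in lentivirus-NC and 3851 to 3899 in lentivirus-circCSPP1, while the sums split by GC content place lentivirus-circCSPP1 replicate 1 apart from the other libraries.

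Lentivirus-circCSPP1 replicate 1 departed from its partners by GC content within this gene family too. Among the 35 genes with transcript GC below 50%, its value was below the mean of the other two in 33, with a median log2 difference of -0.45. Among the 43 genes with GC of 50% or more, it was above them in 27, with a median of 0.14. Across the 78 genes, which share these libraries and are not independent, the departure had a Spearman rho with GC of 0.788 in replicate 1, -0.787 in replicate 2 and -0.582 in replicate 3. The 3 departures of a gene sum to 0, so the negative values are tied to the positive one. In lentivirus-NC rho lay between -0.111 and 0.0982. For all tested genes rho was 0.782 in replicate 1, so the pattern was not limited to this family. Its part in each result above was not tested beyond the values given without that library or after the GC and length correction.

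**Figure D5:**
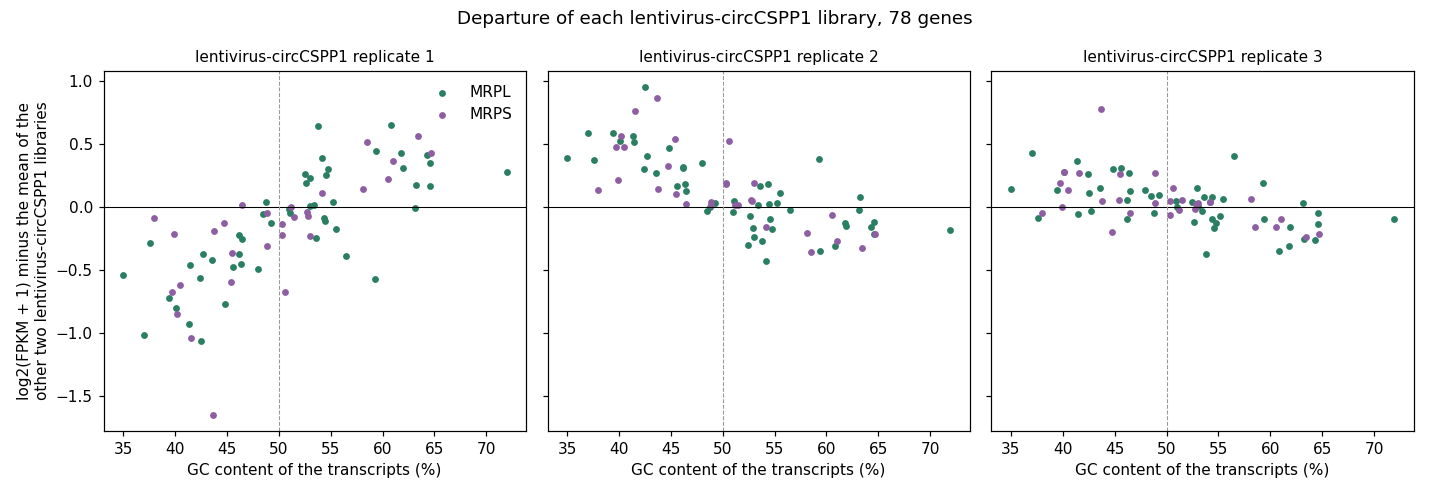
Difference in log2(FPKM + 1) of each lentivirus-circCSPP1 library from the mean of the other two (vertical axis) against transcript GC content in percent, for the 78 genes, MRPL and MRPS in different colours. Replicate 1 climbs with GC content (Spearman rho 0.788), and replicates 2 and 3 fall (-0.787 and -0.582). The 3 departures of a gene sum to 0, so the negative values are tied to the positive one.

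The low-GC genes added up to 1092, 1059 and 1107 in lentivirus-NC and to 919, 1278 and 1185 FPKM in lentivirus-circCSPP1. The high-GC genes added up to 2570, 2587 and 2651 FPKM and to 2933, 2621 and 2679 FPKM. Replicate 1 was thus the lowest of all libraries in the first sum and the highest in the second. Against the lentivirus-NC mean, the median log2 difference of the low-GC genes in lentivirus-circCSPP1 replicates 1, 2 and 3 was -0.32, 0.25 and 0.10. For the high-GC genes it was 0.14, 0.019 and 0.015. Gene by gene, replicate 1 was the lowest of the 6 libraries for 29 members, 23 of them with GC below 50%. It was the highest for 21, 20 of them with GC of 50% or more. Replicate 2 of lentivirus-circCSPP1 was the highest for 30 members and the lowest for 7, and lentivirus-NC replicate 2 was the lowest for 17. The median SD on the log2 scale was 0.072 in lentivirus-NC and 0.19 in lentivirus-circCSPP1, and the lentivirus-circCSPP1 SD was the larger one in 60 of 78 members (76.9%) and in 78.1% of all tested genes.

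A few members spread widely. MRPS27, a pentatricopeptide repeat protein of the small subunit, read 66.5, 32 and 65.6 in lentivirus-NC and 21.3, 70.2 and 67.5 FPKM in lentivirus-circCSPP1. One library of each group was thus below the others, and the standard error of its fold change, 0.48, was the largest of all members. Its fold change was -0.15, and 0.40 without replicate 1 of lentivirus-circCSPP1. MRPL35 read 10.5, 11.8 and 5.59 FPKM in lentivirus-NC, with replicate 3 the low one, and its fold change of 0.32 had a standard error of 0.26. MRPS10 read 28, 26.1 and 28.3 FPKM against 16.9, 40.1 and 31.6 FPKM, so that replicate 1 lay below and the other two above every lentivirus-NC library. MRPS27 and MRPS10 were singled out after their values were seen.

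Without replicate 1, 11 members rose and 0 fell (14.1%), where 28.5% of all tested genes were called (13.2% higher, 15.3% lower). Besides MRPL15, MRPS30, MRPS2, MRPS18B and MRPS21, these were MRPL40, MRPL48, MRPL45, MRPL47, MRPL30 and MRPS17. None of the genes from MRPL40 to MRPS17 in this list passed after the GC and length correction (adjusted p = 0.0816 to 0.575 in limma). MRPL30, a large subunit protein, read 14, 11.6 and 12.7 FPKM against 10.3, 19.8 and 15.8 FPKM, and MRPL47 24.5, 24.6 and 25.9 FPKM against 17.2, 32.6 and 29.1 FPKM. In both, replicate 1 was below and the other two were above all lentivirus-NC libraries. The median fold change of the members was then 0.089 and 53 were above 0. By GC content it was 0.17 for the 35 genes below 50%, 28 of them above 0. For the 43 genes with GC of 50% or more it was 0.020, with 25 above 0. For all tested genes the median was then 0.0097, where it was -0.028 with all libraries, and 6319 of 12322 were above 0. After the GC and length correction, with all 6 libraries, 5 members rose and MRPL39 fell (7.69%), where 27.8% of all genes were called (12.3% higher, 15.5% lower). Counted in the higher direction alone, the share of members called was close to that of all genes without replicate 1 (14.1% against 13.2%) and lower after the correction (6.41% against 12.3%).

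The proteins that build and serve the mitochondrial ribosome gave the following. Of 5 mitoribosome proteins with other names, 0 passed the test (median fold change 0.11). GADD45GIP1 came nearest, at 38.7, 38.8 and 39.2 FPKM against 50.1, 45.6 and 47.4 FPKM (adjusted p = 0.0615 in limma). Its adjusted p in limma was 0.0207 without lentivirus-circCSPP1 replicate 1 and 0.0256 after the GC and length correction. Of 27 assembly and rRNA modification genes, 1 rose and 0 fell (median 0.090). That gene was MTG2, a GTPase of large subunit assembly, which read 35.5, 34.9 and 36.7 in lentivirus-NC and 53.7, 44.5 and 47.9 FPKM in lentivirus-circCSPP1. Its groups did not overlap (fold change 0.43, standard error 0.096, adjusted p = 0.0299 in limma), and the fold change was 0.36 without replicate 1. Of 15 mitochondrial translation factors 0 passed (median -0.019), and of 13 genes of mitochondrial transcription and RNA processing 0 passed (median -0.038). Without replicate 1 both of these medians changed sign, to 0.096 and 0.036, and the counts that rose were 2 of 5, 4 of 27, 3 of 15 and 3 of 13 in the order of these lists, with 0 falling. The background of 13.2% of all genes called higher without replicate 1 applies to these counts. With all libraries 4.69% of all genes were called higher and 6.66% lower.

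Of 8 tested regulators of nuclear genes for mitochondria, 1 rose and 0 fell, where 4.69% of all genes were called higher and 6.66% lower. YY1 read 123, 111 and 107 in lentivirus-NC and 147, 163 and 143 FPKM in lentivirus-circCSPP1 (fold change 0.40, standard error 0.090, adjusted p = 0.0299 in limma), with no overlap and a fold change of 0.42 without replicate 1. Without replicate 1, 2 of the 8 rose and 0 fell, beside 13.2% of all genes called higher. Besides YY1, GABPB1 then rose, at 10.48, 10.9 and 10.93 FPKM against 13.39, 14.75 and 13.45 FPKM. Its adjusted p in limma was 0.0668 with all libraries, 0.0193 without replicate 1 and 0.0212 after the GC and length correction. The 19 members with the YY1 letters in the promoter window had a median fold change of 0.038 and the 50 without them 0.032. The 29 with the ETS letters had 0.10 and the 40 without -0.0026, and the 8 with the NRF1 letters had 0.15 and the 61 without 0.028. Without replicate 1 these medians became 0.096 and 0.059 for YY1, 0.14 and 0.038 for ETS, and 0.19 and 0.079 for NRF1. MRPL15, the member that passed, is not among the 69 genes with a matched promoter. These medians are descriptions, and no test was made between the classes.

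Beside the mitochondrial family, 9 of 84 cytosolic ribosomal protein genes rose and 0 fell (10.7%, median fold change 0.13). Of 82 tested nuclear genes of oxidative phosphorylation subunits, 2 rose and 4 fell (7.32%, median -0.084). Of all tested genes 11.4% were called, 4.69% higher and 6.66% lower. The share of cytosolic ribosomal protein genes called higher was thus above that of all genes. Without replicate 1 the counts were 31 higher and 2 lower for the cytosolic ribosome, and 2 higher and 11 lower for the respiratory chain (median -0.056), where all tested genes gave 13.2% higher and 15.3% lower. The members' median of 0.056 lay between those of the cytosolic ribosome and of the respiratory chain that the mitochondrial ribosome helps to supply. All 3 sets come from the same 6 libraries, and differences between them were not tested.

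The position of these genes was examined because several share a start region with another gene. A gene on the opposite strand began within 1000 bases in 17 of the 78 (21.8%), against 7.34% of the 19691 genes of the table found in GENCODE. MRPL46 and MRPS11 face each other 34 bases apart on chromosome 15. Their fold changes were 0.11 and -0.12. MRPL36 lies beside NDUFS6 and MRPL47 beside NDUFB5, both subunits of respiratory complex I. Of the 14 partners that were tested 0 passed. They form 13 distinct pairs, since MRPL46 and MRPS11 are partners of each other, and 4 of the 13 had fold changes of the same sign. Exons overlapped another gene on the same strand in 16 members and on the opposite strand in 29, and 34 had a pseudogene named after them, so that reads could be shared for these, whose assignment is not described in the sources used here.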

How the data were processed

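Members, gene lists and tests were chosen with earlier results of these data known. The authors extracted RNA with Trizol, made paired-end libraries from its polyadenylated part and deposited 1 table of FPKM values for 19727 genes, rounded to 2 decimals. The submitters' processing notes name the build hg38. The aligner, the FPKM program and the strand of the kit are not given in the sources used here. No column of per-sample values was left unused (0 columns). Depth per library, 28800000 to 36400000 fragments, was estimated from the steps of low FPKM values in short genes with a single transcript (66 to 85 values, 92.6% to 98.7% whole within 0.15 of a step). The depth with the highest such share was taken. Chance gives 30% for a depth fixed beforehand, and the chance level for the best of many depths was not estimated.

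Values were taken to log2(FPKM + 1), a scale that understates the change of low genes. Genes averaging 1 FPKM or more (12322) entered limma 3.58.1 (R 4.3.3), with trended eBayes, a two-sided test, no covariate and Benjamini-Hochberg adjustment, and 7405 were left out. The fit was tested on simulated data. Positions, GC content and transcript length came from GENCODE release 29, and promoters from RefSeq. A promoter window was not used for 9 members. Of 70 genes on the related lists, 69 were found in the table under a current or older symbol, and FASTKD4 was not analysed here. PPARGC1A was under the filter.

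Genes were named by rule: members past an adjusted p of 0.05, the 6 highest and 6 lowest fold changes, the 4 highest levels of each subunit and the 3 lowest levels, members of set roles, and list genes past the threshold. MRPL47, MRPL30, MRPS17, MRPS27, MRPS10, GADD45GIP1, GABPB1 and the members listed as not overlapping or with a partner gene fall outside it. They were added once their values were known. Alternatives were other pseudocounts (0.1, 0.01), the filter dropped or raised to 5 FPKM, TPM, median-ratio and quantile scaling, unmoderated and robust fits, a replicate block, leaving out each library, and a loess correction for GC content and length (span 0.3). Figures were drawn with matplotlib 3.10.9.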

Additional observations from a re-analysis of the deposited data

How the results depend on the processing

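The number of members called higher, 1 as reported, was 2 with no filter, 0 with a mean of at least 5 FPKM, 0 with quantile normalization, 5 with the GC and length correction and 0 to 11 when each library was left out in turn; 1 member was called lower with the GC and length correction. The count of all genes called, 1399, was 834 without moderation, 3431 with the GC and length correction and 300 to 3512 when each library was left out, the highest without lentivirus-circCSPP1 replicate 1 and the lowest without lentivirus-NC replicate 1. The median fold change of the MRPL genes was 0.10 under median-ratio scaling and 0.058 to 0.079 over the left-out libraries, that of the MRPS genes -0.028 to 0.095, and that of all members 0.024 to 0.089. MRPL15 kept its direction in all 18 alternatives and lost its call with no filter (adjusted p = 0.115 in limma), a mean of at least 5 FPKM (0.0505), quantile normalization (0.0710) and no moderation (0.136). The cause was not tested. The 2 members called higher with no filter and the 1 called higher without moderation were thus genes other than MRPL15. The shift of the median over all genes was at most 0.057 in size.

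The series' design text calls the samples paired without saying what a replicate number stands for. Same-numbered libraries deviated together with correlations of 0.0734, 0.00653 and 0.0572, all under the bar of 0.1 set for pairing, so the fit without the block was kept and whether the numbers pair the samples is not settled; lentivirus-NC replicate 2 correlated best with lentivirus-circCSPP1 replicate 3. With the replicate block, 0 members and 923 of all genes were called (MRPL15 adjusted p = 0.0589 in limma). With the GC and length correction and the replicate block together, 3 members were called higher, 1 lower, and 2582 of all genes were called.

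Fold changes near 0 changed sign under quantile normalization for MRPL18 (-0.0016), MRPL24 (-0.016) and MRPS34 (-0.0039), and under median-ratio scaling for MRPL9 (0.019). Leaving out 1 library at a time gave fold changes on both sides of 0 in 30 of the 78 members. Of the 44 members named by rule or by choice these were, with the lowest and the highest value, MRPL1 (-0.16 to 0.38), MRPL10 (-0.11 to 0.23), MRPL18 (-0.11 to 0.17), MRPL22 (-0.23 to 0.096), MRPL23 (-0.062 to 0.18), MRPL24 (-0.023 to 0.12), MRPL42 (-0.074 to 0.14), MRPL44 (-0.33 to 0.079), MRPL47 (-0.15 to 0.29), MRPL9 (-0.050 to 0.013), MRPS10 (-0.24 to 0.36), MRPS17 (-0.0065 to 0.40), MRPS18C (-0.15 to 0.22), MRPS27 (-0.49 to 0.40), MRPS31 (-0.093 to 0.29), MRPS34 (-0.11 to 0.11) and MRPS35 (-0.41 to 0.065). Depth limits the lowest genes most: the fewest fragments estimated for a member were 108.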
